A study of Mus musculus with 4 samples.

Results

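A set of 10 transcription factors of the luminal lineage was followed across the epithelial cells of the mouse mammary gland: Elf5, Gata3, Foxa1, Ehf, Elf3, Grhl2, Stat5a, Runx1, Myb and Tbx3. They were chosen by name from the 31053 genes in the count matrices, and each matched 1 gene. Single-cell 3′ RNA libraries came from the fourth mammary glands of FVB mice of post natal week 9, with 1 mouse per library. All 4 mice carried Tfap2cfl/fl and Krt5-CreERT2, so the controls carried the floxed alleles and the Cre as well. From week 4, 2 mice received daily corn oil as the vehicle and the other 2 received daily 4OHT (4-hydroxytamoxifen), which activates CreERT2. Cre is made where the Krt5 promoter is active, which in this gland is mainly the basal layer, and the study asked how loss of Tfap2c (AP-2γ) affects mammary stem cells.

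The mammary epithelium has an outer basal, contractile layer and an inner luminal layer. Luminal cells divide into progenitors, which give rise to milk-secreting alveolar cells, and hormone-sensing cells, which carry the oestrogen and progesterone receptors and signal to their neighbours. Elf5 is known as a driver of alveolar differentiation, Gata3 as a factor needed for luminal identity, Foxa1 as a pioneer factor that opens chromatin for the oestrogen receptor, and Stat5a as the mediator of prolactin signalling.

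Cells with at least 1000 UMIs (unique molecular identifiers, each standing for 1 captured transcript) were put into 3 classes by genes outside the 10 factors. Basal cells had at least 5 UMIs of Krt5, Krt14, Krt17 and Acta2 together, and more than 3 times their sum of Krt8, Krt18 and Krt19. Luminal cells met the reverse condition. A luminal cell was called hormone-sensing when Ly6d, Fxyd2 and Gpx3 summed to at least 3 UMIs and exceeded Wfdc18, Csn3 and Ltf, and was called a luminal progenitor otherwise. Of 18223 cells, 391 fell below the UMI minimum, and the gates held 7028 basal, 5629 luminal progenitor and 1168 hormone-sensing cells. The hormone-sensing class was the smallest, with 151 and 330 cells after corn oil and 240 and 447 after 4OHT (replicates 1 and 2). Markers that were not used in the gates followed the class names. Trp63, Myh11 and 5 other basal markers summed to between 3876 and 5105 CPM in basal cells and to at most 240.2 CPM in luminal progenitors. Kit, Aldh1a3, Cd14, Lcn2 and Plet1 summed to between 5615 and 8275 CPM in progenitors, between 1126 and 2631 CPM in basal cells and at most 429 CPM in hormone-sensing cells. Prlr, Pgr, Esr1, Cited1 and Areg summed to between 1111 and 2131 CPM in hormone-sensing cells and to at most 125 CPM elsewhere.

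CPM, a depth-scaled count, is here the sum of a gene's UMIs over the cells of 1 class in 1 library, scaled to the total of that class in that library, and 4 values are always given in the order corn oil 1, corn oil 2, 4OHT 1, 4OHT 2. Libraries held between 17351950 and 22017878 UMIs, with medians between 3055 and 5299.5 UMIs per cell, and any pair shared between 18 and 36 cell barcodes. Tfap2c, the targeted gene, stood at 389, 285, 285 and 325 CPM in basal cells. The groups overlapped, with a log2 fold change of -0.08 (SE 0.25, edgeR quasi-likelihood test, adjusted p = 1.00). With a stricter keratin ratio of 10 the basal values were 332, 217, 178 and 223 CPM. A 3′ count does not show whether a floxed exon was removed, so the groups are named below by their labels, corn oil and 4OHT.

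Sequence near the start sites of the factors is shown first, because Tfap2c, the targeted gene, encodes AP-2γ. The RefSeq promoter table (GRCm38.p6) held 7 of the 10 factors, with 10 windows of 300 bases around their starts. The palindromic AP-2 pattern GCCNNNGGC, which reads alike on both strands, was present in 2 of these 10 windows, at Gata3 and Runx1. Of all 32851 windows 16.6% held it, so the count is near the background share. At Gata3 it occurred 3 times, without overlap, within 250 bases upstream of a start site at chr2:9878601-9878850 on the minus strand. GENCODE places this stretch in an intron of Gata3 and an exon of the antisense gene Gm13256. Capitals mark the AP-2 pattern in the first and second sequences and the forkhead pattern in the third, which is shown because Foxa1 is itself a forkhead factor.
Gata3, before a RefSeq start: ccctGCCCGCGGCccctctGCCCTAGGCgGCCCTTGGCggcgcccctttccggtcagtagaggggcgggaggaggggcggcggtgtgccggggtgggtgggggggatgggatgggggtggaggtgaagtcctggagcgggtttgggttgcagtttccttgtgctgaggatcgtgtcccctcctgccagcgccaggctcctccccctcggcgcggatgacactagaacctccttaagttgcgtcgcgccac
Runx1, before a RefSeq start: attggcaagaGCCAATGGCggtgggctgtg
Foxa1, before a RefSeq start: atactgctttGTAAACAaagtgagggccag
The Runx1 stretch lies at chr16:92826110-92826139 and the Foxa1 stretch at chr12:57546233-57546262, both on the minus strand. Both lie before the start of a RefSeq transcript but inside the bounds of the gene in GENCODE, in windows that overlap its annotated exons and UTR. The forkhead pattern TGTTTAC, searched on both strands, was found at Foxa1 and Myb and in 3.65% of all windows. The RUNX pattern TGTGGTT was found at Runx1 and in 5.27% of windows. The patterns for STAT5 (TTCNNNGAA, 8.3% of windows), ETS factors (CCGGAAG, 8.86%), grainyhead factors (AACCNGTT, 2.09%) and the family of Gata3 (AGATAA, 11.2%) were in none of the 7 factors' windows. These are letter matches in a short window, and binding was not measured.

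Differences between the classes were large for most of the factors. They were tested with edgeR on 12 sums (4 libraries by 3 classes) with the library as a block, over 11135 genes, and a gene was called at a Benjamini-Hochberg adjusted p under 0.05. Between luminal progenitor and basal cells, 5 of the 10 factors were higher in progenitors and 1 was lower, beside 26.6% and 29.5% of all genes. Between hormone-sensing and basal cells, 8 were higher and 1 lower, beside 27.3% and 32.4% of all genes. Between hormone-sensing and progenitor cells, 6 were higher and 2 lower, beside 21.9% and 24.6% of all genes. Calls were common among all genes, so the sizes below say more than the counts. The median log2 difference over all genes was close to 0 in each comparison (-0.04, -0.08 and -0.02).

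Elf5 and Ehf, a pair of ETS-family factors of the epithelium, were the factors concentrated in luminal progenitors. Elf5 was at 179, 115, 118 and 149.7 CPM there, from 3917 UMIs. In basal cells it was at 1.36, 1.22, 1.35 and 2.43 CPM, and in hormone-sensing cells at 3.08, 1.76, 11.6 and 5.51 CPM. No progenitor value came near those of the other classes, and the progenitor level was 106-fold that of basal cells (log2 fold change 6.73, SE 0.28, adjusted p = 2.1e-11). Hormone-sensing cells were lower than progenitors by a log2 fold change of -4.95 (SE 0.29, adjusted p = 2.2e-09). The smaller difference of 1.78 (SE 0.43, adjusted p = 0.00197) between hormone-sensing and basal cells rested on 39 and 43 UMIs. It was not called after each cell was thinned to 2000 UMIs (1.26, adjusted p = 0.118).

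Ehf was at 95.9, 91.7, 82.2 and 71.0 CPM in progenitors. In basal cells it stood between 1.06 and 2.36 CPM, and in hormone-sensing cells between 10.2 and 14.2 CPM. All 3 classes were apart in every library, in the order progenitor, hormone-sensing, basal. Progenitors stood 64.1-fold above basal cells (SE 0.19 on the log2 scale, adjusted p = 1.6e-12). The log2 fold change of hormone-sensing over basal cells was 2.91 (SE 0.24, adjusted p = 3.4e-08). Ehf and Elf5 lie on the same chromosome and point away from each other, Ehf at chr2:103263433-103303278 on the minus strand and Elf5 at chr2:103411688-103450989 on the plus strand (GENCODE M21, GRCm38). The 108.4 kb between them holds 3 annotated genes and no protein-coding gene.

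Elf3, another epithelial ETS factor, did not mark a single luminal class. It was at 100.04, 59.5, 78.9 and 61.2 CPM in progenitors and at 78.6, 63.5, 57.9 and 75.6 CPM in hormone-sensing cells, and these ranges overlapped. Basal cells held 35.5, 34.4, 44.3 and 48.0 CPM, below every luminal value. Elf3 was higher than in basal cells by a log2 fold change of 1.15 (SE 0.17, adjusted p = 3.4e-05) in progenitors and 0.78 (SE 0.18, adjusted p = 0.00151) in hormone-sensing cells. The luminal classes differed by -0.36 (SE 0.18, adjusted p = 0.114), which did not pass.

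**Figure D1:**
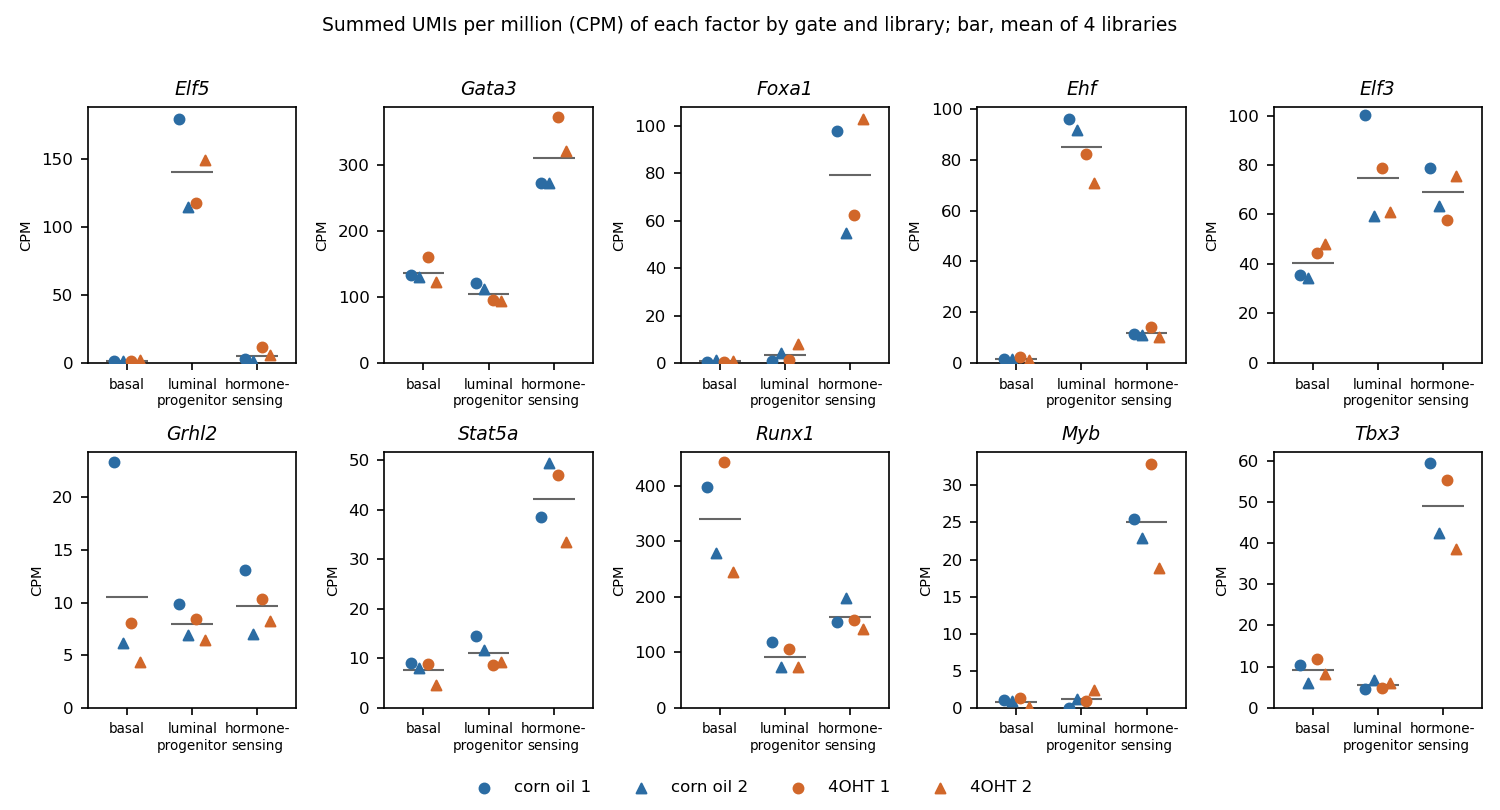
CPM (vertical axis, linear, a scale of its own for each gene) of the 10 factors in basal, luminal progenitor and hormone-sensing cells, with 1 point per library and a bar at the mean of 4 libraries. Elf5 and Ehf are high in progenitors, Foxa1, Myb, Stat5a and Tbx3 in hormone-sensing cells, and Runx1 in basal cells.

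Foxa1 was highest in hormone-sensing cells, at 97.9, 54.7, 62.5 and 103 CPM. Basal cells held 17 Foxa1 UMIs in all 4 libraries together, between 0.247 and 1.22 CPM. The log2 fold change of hormone-sensing over basal cells was 6.98 (SE 0.45, adjusted p = 2.0e-09), and over progenitors it was 4.40 (SE 0.36, adjusted p = 8.3e-08). Progenitors held 0.688, 4.30, 1.31 and 7.89 CPM, from 5, 26, 11 and 49 UMIs, and the order of these libraries was that of their numbers of hormone-sensing cells (151, 330, 240 and 447). A stricter luminal split asked for at least 3 UMIs of a marker set and more than 3 times the other set. It left out 1389 of 6797 luminal cells, with mixed markers or few markers, and lowered the progenitor UMIs to 1, 10, 0 and 20. The progenitor over basal difference, 2.58 (SE 0.58, adjusted p = 0.00119), was then 1.35 and not called (adjusted p = 0.119). The part of cells misplaced between the luminal gates was not tested. An order of 4 libraries, seen afterwards, and a split that also drops cells with few markers cannot decide it.

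Myb, a proto-oncogene best known from blood progenitors, and Tbx3, a T-box repressor needed for mammary bud formation, shared this pattern. Myb was at 25.4, 22.9, 32.8 and 18.9 CPM in hormone-sensing cells, from 171 UMIs. Basal cells held between 0.152 and 1.35 CPM, and progenitors 0, 1.16, 0.952 and 2.42 CPM. The value of 0 (corn oil 1) allows up to 0.413 CPM, at 3 counts. The hormone-sensing level exceeded that of basal cells by a log2 fold change of 4.83 (SE 0.49, adjusted p = 3.9e-07) and that of progenitors by 4.24 (SE 0.47, adjusted p = 2.4e-06). Progenitors and basal cells, at 30 and 23 UMIs, differed by 0.59 (SE 0.65, adjusted p = 0.462).

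Tbx3 was at 59.4, 42.4, 55.4 and 38.6 CPM in hormone-sensing cells. Basal cells held 10.5, 6.12, 11.8 and 8.20 CPM and progenitors 4.68, 6.77, 4.88 and 5.96 CPM, so that all hormone-sensing libraries stood above all others. The log2 fold change was 2.43 (SE 0.20, adjusted p = 3.2e-08) over basal cells and 2.87 (SE 0.21, adjusted p = 2.3e-08) over progenitors. Progenitors and basal cells differed by -0.44 (SE 0.21, adjusted p = 0.0918), which was called as -0.94 (adjusted p = 0.000879) under the strict luminal split. It was called as well without corn oil 2 (-0.66, adjusted p = 0.0233).

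Stat5a was highest in hormone-sensing cells and not in the progenitors from which secretory cells arise. Its hormone-sensing values were 38.5, 49.4, 47.0 and 33.5 CPM, against 14.6, 11.7, 8.69 and 9.34 CPM in progenitors and 9.02, 7.95, 8.76 and 4.55 CPM in basal cells. The hormone-sensing values lay above all others, whereas progenitor and basal values overlapped. The log2 fold change was 2.53 (SE 0.20, adjusted p = 2.3e-08) over basal cells and 1.70 (SE 0.19, adjusted p = 2.8e-06) over progenitors. Progenitors exceeded basal cells by 0.83 (SE 0.20, adjusted p = 0.00199), a call that was lost after thinning (0.74, adjusted p = 0.0526). Stat5a overlaps Stat3 on the opposite strand and has a close copy, Stat5b, so its counts are uncertain to the extent that reads were shared. Stat5b itself was also higher in hormone-sensing than in basal cells (log2 fold change 1.47, SE 0.26, edgeR, called).

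Gata3 was present in every class and highest in hormone-sensing cells. It was at 273, 273, 373 and 321 CPM there, at 133, 129.7, 161 and 122 CPM in basal cells and at 120.4, 111, 94.5 and 93.5 CPM in progenitors. Hormone-sensing cells exceeded basal cells by a log2 fold change of 1.21 (SE 0.13, adjusted p = 8.7e-07) and progenitors by 1.31 (SE 0.13, adjusted p = 8.5e-07). Progenitors and basal cells differed by -0.10 (SE 0.13, adjusted p = 0.531), and the sign of this value depended on which libraries were used. Gata3 overlaps 3 other annotated genes, 1 of them on its own strand, and the strand setting of the counting is not given in the sources used here.

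Runx1, a runt-domain factor active in blood and epithelium, went the other way and was highest in basal cells. Basal values were 397, 279, 442 and 245 CPM, against 118, 72.9, 105 and 73.3 CPM in progenitors and 154, 198, 158 and 141 CPM in hormone-sensing cells. Every basal library stood above every luminal one, and both replicates numbered 1 exceeded both numbered 2 in basal cells. The log2 fold change was -1.60 (SE 0.18, adjusted p = 9.9e-07) for progenitors and -0.99 (SE 0.18, adjusted p = 0.000156) for hormone-sensing cells, each against basal cells. Hormone-sensing cells exceeded progenitors by 0.61 (SE 0.18, adjusted p = 0.0104), a call that was lost without corn oil 2 (0.32, adjusted p = 0.0859). Cbfb, the partner subunit of Runx proteins, averaged 29.4 CPM in basal, 18.0 CPM in progenitor and 29.8 CPM in hormone-sensing cells.

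Grhl2, a grainyhead factor that maintains epithelial junctions, showed no called difference between the classes. It was at 23.4, 6.12, 8.08 and 4.40 CPM in basal cells, 9.91, 6.94, 8.45 and 6.44 CPM in progenitors and 13.1, 7.06, 10.3 and 8.27 CPM in hormone-sensing cells. None of its class differences passed (log2 fold changes 0.05, 0.07 and 0.03, adjusted p between 0.85 and 0.957, SE between 0.25 and 0.30), and the sign of each changed with the processing. The high basal value rested on a single cell of corn oil 1, chosen here after its value was seen, which held 83 of that library's 189 basal Grhl2 UMIs. The next cell held 8. The cell with 83 had 3135 UMIs from 1028 genes, 20 UMIs of the basal gate genes, 1 of the luminal gate genes and 4 of markers of other cell types. Without it the library stood at 13.1 CPM, and the differences from basal cells were 0.33 (adjusted p = 0.16) in progenitors and 0.36 (adjusted p = 0.189) in hormone-sensing cells.

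**Figure D2:**
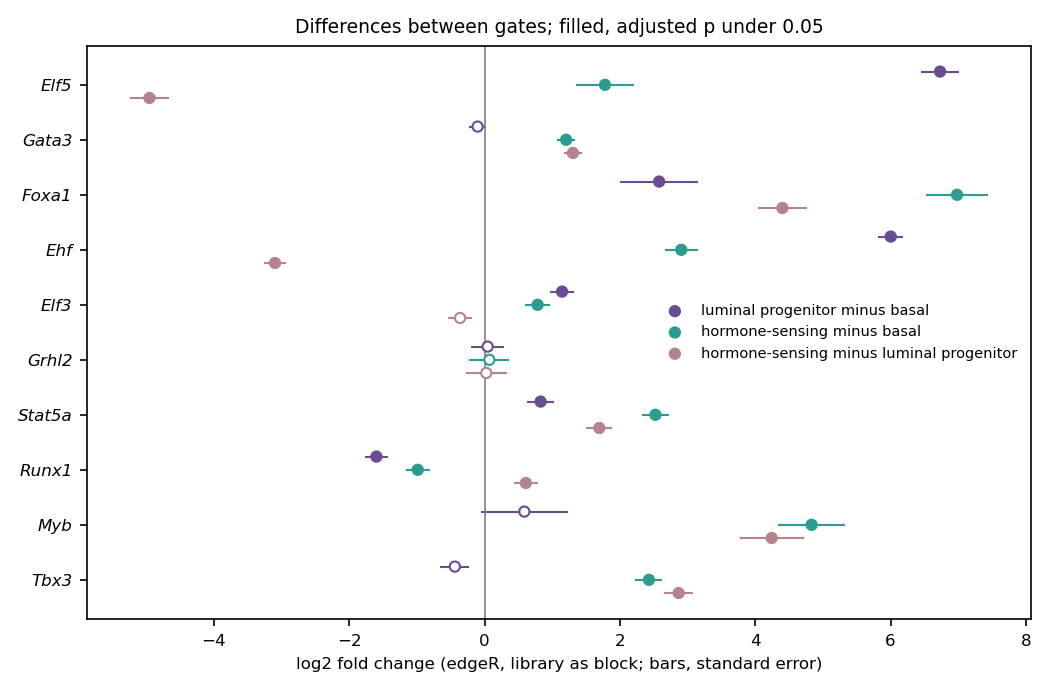
Log2 fold change (horizontal axis) between classes for each factor, from edgeR with the library as a block, with bars for the standard error and filled points at an adjusted p under 0.05. Elf5 and Ehf lie right of 0 for progenitors over basal cells and left of 0 for hormone-sensing cells over progenitors, whereas Foxa1 and Myb reach 6.98 and 4.83 for hormone-sensing over basal cells.

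Shares of cells with at least 1 UMI were compared as well. Cells were reduced at random to 2000 UMIs each, and shallower ones were dropped, namely 707 of 7028 basal, 354 of 5629 progenitor and 19 of 1168 hormone-sensing cells. Elf5 had a UMI in 21.9%, 18.0%, 16.5% and 22.6% of progenitors, a mean of 19.7% ± 2.94 (SD, n = 4), and in 0.318% of basal and 0.672% of hormone-sensing cells on average. Unthinned, the progenitor mean was 32.4%. Foxa1 had a UMI in 15.9%, 11.7%, 14.0% and 16.7% of hormone-sensing cells (mean 14.6% ± 2.26), against 35.5% unthinned, and in 0.524% of progenitors. These shares differ from those in endothelial cells, taken as a class that is not epithelial. Elf5 was found in 0 of 126 such cells, which allows up to 2.38%, and Foxa1 in 1 (0.794%). The lower shares of Elf5 and Foxa1 outside their own classes lay under these values. So few endothelial cells cannot decide whether those lower shares are expression. Median depth before thinning was 2092 to 3909 UMIs in endothelial cells and 3473 to 5282 UMIs in progenitors.

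Runx1 was found in 45.7% ± 9.32 of basal cells (SD, n = 4; 64.8% unthinned), 15.4% of progenitors and 26.4% of hormone-sensing cells, and in 5 of 24 leukocytes. Gata3 was found in 38.2% ± 3.89 of hormone-sensing cells (SD, n = 4; 68.3% unthinned), 22.2% of basal cells and 17.1% of progenitors. For Stat5a the shares of 1.42% in basal cells and 1.88% in progenitors lay under the 3.17% (4 of 126) of endothelial cells. Endothelial cells held Stat5a UMIs themselves, so this comparison cannot decide whether basal cells and progenitors express it. The Stat5a share of hormone-sensing cells was 7.53% (20.2% unthinned), with corn oil 1 the lowest at 3.31%. Myb was found in 5.16% ± 1.41 and Tbx3 in 9.51% ± 2.07 of hormone-sensing cells (SD, n = 4; 12.2% and 24.4% unthinned) and each in 0 of 126 endothelial cells. Elf3 was found in 6.85% of basal, 12.1% of progenitor and 10.5% of hormone-sensing cells (11.9%, 24.2% and 26.4% unthinned). Grhl2 was found in 1.46%, 1.63% and 1.37% (3.16%, 3.86% and 6.33% unthinned). The 0 of 126 endothelial cells with Grhl2 allow up to 2.38%, a limit too wide to judge these shares. Unthinned, at unequal depth, Grhl2 was in 0 of 182 endothelial and 0 of 118 fibroblast cells. The epithelial counts were then 204 of 7028 basal, 216 of 5629 progenitor and 63 of 1168 hormone-sensing cells. The shares of Ehf in basal (0.332%) and in hormone-sensing cells (1.10%) lay under the endothelial 2.38% (3 of 126 cells), against 13.4% in progenitors (25.7% unthinned).

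**Figure D3:**
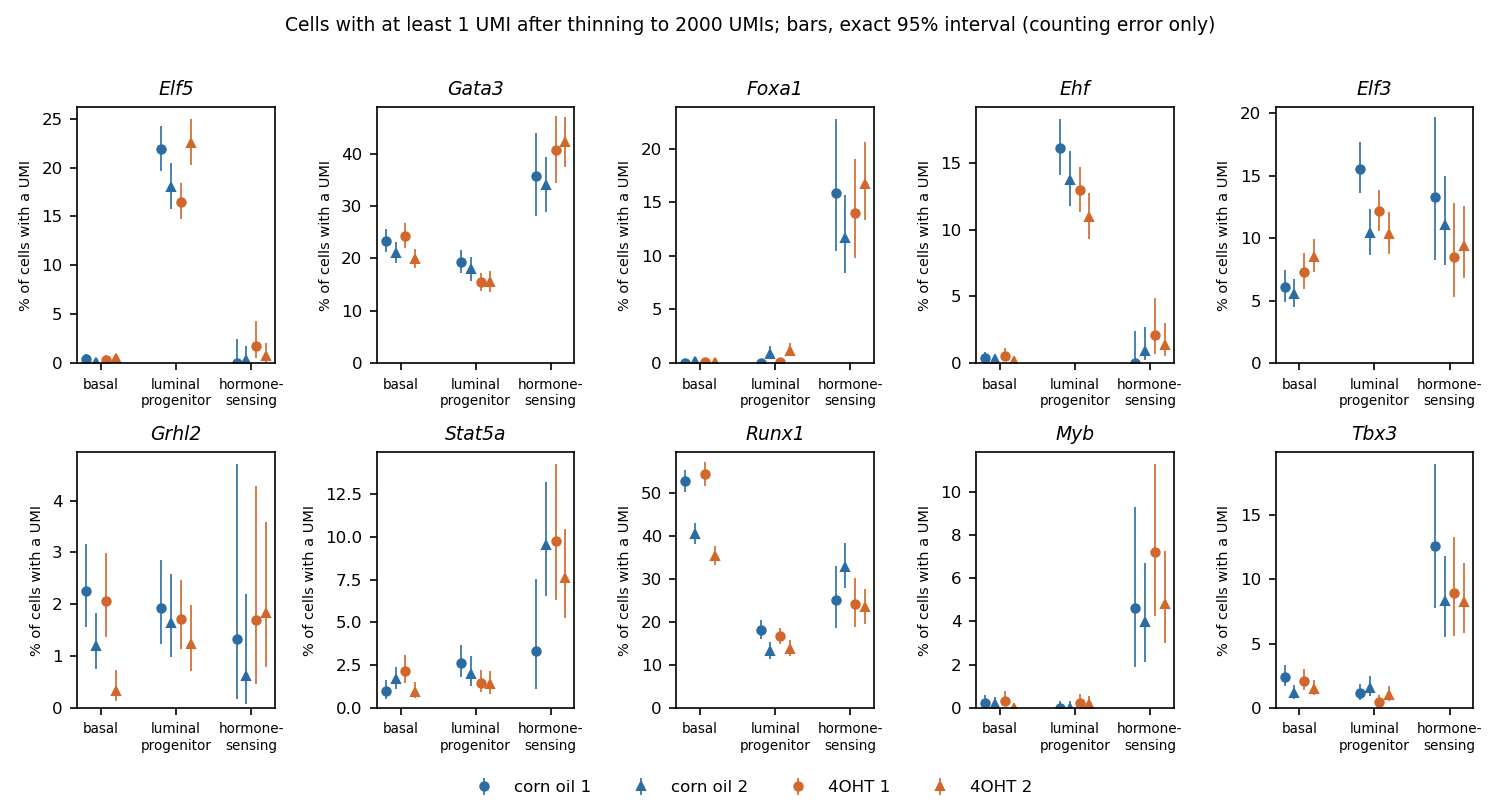
Percent of cells with at least 1 UMI of each factor after thinning to 2000 UMIs (vertical axis, a scale of its own for each gene), with 1 point per library and exact Clopper-Pearson 95% intervals, which cover counting error only. Elf5 ranges from 16.5% to 22.6% of progenitors, and Foxa1 from 11.7% to 16.7% of hormone-sensing cells.

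Within the luminal layer, Elf5 and Foxa1 were seldom found in the same cell. Among 6424 thinned luminal cells, 1041 had an Elf5 UMI, 194 a Foxa1 UMI, and 4 had both. Elf5 was found in 2.06% of cells with Foxa1 and in 16.6% of those without. By library the share with Foxa1 was 0%, 2.13%, 0% and 3.41%, resting on those 4 cells, against between 14.4% and 19.9% of cells without Foxa1. Each library showed the same direction, but 168 of the 194 cells with Foxa1 were in the hormone-sensing gate, where 8 of 1149 cells had Elf5. All 4 shared cells were in the progenitor gate, and of the 168 hormone-sensing cells with Foxa1 none had Elf5. Inside the progenitor gate the shares lay closer together, at 15.4% (4 of 26 cells) with Foxa1 and 19.6% without. Elf5 was likewise found in 0 of the 64 luminal cells with Myb, and Foxa1 in 1 of the 719 with Ehf. Of the 64 cells with Myb, 58 were in the hormone-sensing gate, where 8 of 1149 cells had Elf5. Of the 719 cells with Ehf, 705 were in the progenitor gate, where 26 of 5275 cells had Foxa1. The part of the gates in these low counts was not tested.

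Other pairs differed in direction. Elf5 was found in 29.3% of luminal cells with Ehf and in 14.5% of those without, and within the progenitor gate in 29.9% and 18.0%. Gata3 was found in 91 of 194 cells with Foxa1 (46.9%), at 45.8%, 46.8%, 45.7% and 47.7% by library, against 18.1% to 20.9% of cells without Foxa1. Within hormone-sensing cells the Gata3 shares were 47.6% and 37.2%. Further pairs of the factors high in that class gave pooled shares in both directions there, mostly from few cells, and these differences were not tested. Stat5a was found in 12.6% of cells with Tbx3 (13 of 103) and 7.55% without. Gata3 was found in 53.3% of cells with Stat5a (49 of 92) and 37.5% without. Foxa1 was found in 10.3% of cells with Myb (6 of 58) and 14.8% without. With and without Tbx3 the Foxa1 shares were 9.71% (10 of 103) and 15.1%. With and without Stat5a they were 14.1% (13 of 92) and 14.7%. Myb was found in 2.91% of cells with Tbx3 (3 of 103) and 5.26% without. Detection of 1 UMI in a thinned cell misses most transcripts of a low gene, so these shares describe detection and not the absence of a factor.

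**Figure D4:**
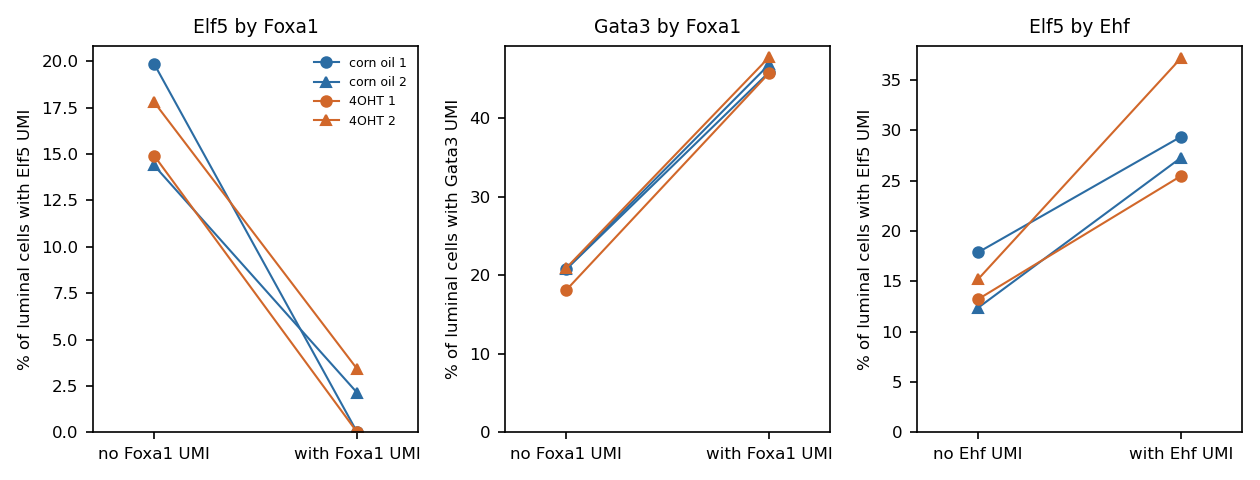
Percent of thinned luminal cells with an Elf5 or Gata3 UMI (vertical axis) among cells without and with a UMI of Foxa1 (Elf5 and Gata3) or of Ehf (Elf5), with 1 line per library. Elf5 falls to at most 3.41% with Foxa1, whereas Gata3 reaches 45.7% to 47.7% with Foxa1.

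Among the factors themselves, CPM over the 12 sums ran together for Gata3 and Tbx3 (Pearson r = 0.96), Foxa1 and Myb (0.96), Myb and Tbx3 (0.95) and Elf5 and Ehf (0.94), on the log2(CPM + 1) scale. Ehf and Runx1 ran opposite (-0.91). These values are descriptions, since sums of 1 library share depth and the 3 classes set most of the variation. Among 2675 genes that reached 50 CPM in a class, the nearest to Elf5 was Klf5, a Krüppel-like factor (0.97), and the nearest to Ehf was Chmp4c, an ESCRT subunit (0.98). Tspan1, a tetraspanin, was nearest to Foxa1 (0.99), Wfdc2, a secreted protease inhibitor, to Myb (0.98), Ctr9, a subunit of the PAF1 complex, to Tbx3 (0.99) and Eif3l, a translation initiation subunit, to Gata3 (0.98). Stat5a was nearest to Adam10, a membrane protease (0.96), Runx1 to Foxp1, a forkhead factor (0.97), Elf3 to the claudin Cldn4 (0.89), and Grhl2 to Mier1 (0.85).

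Lists of genes linked to the factors or to the classes were compared as well. Of 16 epithelial genes linked to Grhl2 and Elf3, 14 were higher and 1 lower in progenitors than in basal cells (median log2 fold change 2.36), beside 26.6% and 29.5% of all genes. Cldn3, a claudin of tight junctions, rose most (5.43, SE 0.15), and Lamb3, a laminin chain of the basement membrane, fell (-2.87, SE 0.20), by edgeR. In hormone-sensing cells against basal cells 12 were higher and 1 lower, beside 27.3% and 32.4% of all genes. Grhl2 itself passed in neither comparison, whereas Elf3 passed in both (1.15 and 0.78). A link of these genes to Grhl2 or Elf3 was not tested, and Cldn3 and Krt7 are also among the luminal progenitor companions below. Of 22 tested genes from a list of luminal progenitor companions, 19 were higher in progenitors than in basal cells and 1 lower (median 3.41). The shares of all genes were the same 26.6% and 29.5%. The list was led by the receptor tyrosine kinase Kit (7.25, SE 0.47, against 2 basal UMIs) and the casein Csn1s2a (6.80, SE 0.30). Of 16 tested genes from a list of hormone-sensing companions, 13 were higher in hormone-sensing than in basal cells and 2 lower (median 3.63). The shares of all genes were the same 27.3% and 32.4%. The list was led by the prolactin receptor Prlr (7.22, SE 0.38) and the growth factor Areg (6.70, SE 0.29). Both companion lists were chosen as class genes and hold the markers that checked the class names. Their counts describe the classes, and a link to Elf5 or Foxa1 was not tested.

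Close relatives of the factors were also compared. Of 24 relatives, 17 were tested, and 4 were higher and 5 lower in hormone-sensing than in basal cells (median -0.36, beside -0.08 over all genes), where 27.3% and 32.4% of all genes were called, so these counts are near the background. The ETS factor Spdef was higher in hormone-sensing cells than in progenitors (log2 fold change 3.89, SE 0.47), and Runx2 was lower (-3.24, SE 0.53), by edgeR. Grhl1, unlike Grhl2, was higher in progenitors than in basal cells (3.56, SE 0.29). Tbx2, the nearest relative of Tbx3, fell in both luminal classes (-4.36, SE 0.52, in progenitors and -4.60, SE 0.78, in hormone-sensing cells, which held 4 UMIs and 1 UMI). Of 7 tested genes from a list of basal factors, 6 were lower and 1 (Srf) higher in progenitors, beside 29.5% and 26.6% of all genes. In hormone-sensing cells 7 were lower, among them Trp63 (-6.37, SE 0.32), beside 32.4% of all genes. The list shares Trp63, Snai2 and Tagln with the markers that checked the class names, so its counts describe the classes.

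Signs of cell handling and of other cell types differed between the classes too. A list of 15 immediate early and heat shock genes summed to between 3236 and 5189 CPM in hormone-sensing cells, 6176 and 8437 CPM in basal cells and 5620 and 10320 CPM in progenitors. All 15 were detected, and their part in the class differences was not tested. In basal cells the groups did not overlap on this list, at 8375 and 8437 CPM with 4OHT against 6176 and 7245 CPM with corn oil, although 0 of the 15 genes were called. Fibroblast markers summed to 243, 51.8, 1344 and 237 CPM in hormone-sensing cells and to at most 67.9 CPM elsewhere, with all 5 detected. Endothelial, pericyte and leukocyte markers stayed at or under 85.1, 33.2 and 12.2 CPM. The leukocyte marker Ptprc was at 0 in basal cells. When cells with 2 or more UMIs of these other-type markers together were left out, every class call of the factors was kept and Tbx3 was also called between progenitors and basal cells (-0.62, adjusted p = 0.0219). That step left 118 of 151, 298 of 330, 139 of 240 and 368 of 447 hormone-sensing cells, so the loss was largest in 4OHT 1.

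Between the 4OHT and corn oil libraries no factor passed the test in any class. In basal cells 0 of 7 tested factors were called, beside 0% of 10788 genes, and 0 reached an unadjusted p under 0.05, beside 4.31%. In progenitors 0 of 9 were called, beside 0% of 10120 genes, and 0 unadjusted, beside 1.64%. In hormone-sensing cells 0 of 9 were called, beside 0.0132% of 7589 genes, and 0 unadjusted, beside 3.16%. The 1 gene called there was Ctsr, with 2, 6, 91 and 130 UMIs, and DESeq2 called 38, 1 and 7 genes in the 3 classes and none of the factors. Elf5, Foxa1 and Myb in basal cells, Myb in progenitors and Elf5 in hormone-sensing cells had too few counts to be tested. With 2 mice per group, changes smaller than the spread between libraries were not detectable.

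Where the groups did not overlap, the differences were small or rested on few counts. In basal cells 1 of 10 factors did not overlap, beside 30.9% of all genes (13.3% higher and 17.6% lower with 4OHT). It was Elf3, at 44.3 and 48.0 CPM with 4OHT against 35.5 and 34.4 CPM (log2 fold change 0.45, SE 0.25, unadjusted p = 0.115, edgeR adjusted p = 1.00). The immediate early and heat shock list stood higher with 4OHT in the same cells, with a median log2 fold change of 0.39 and 13 of 15 genes above 0. Its median was also above 0 in progenitors (0.31, 12 of 15 genes) and in hormone-sensing cells (0.24, 10 of 15 genes). There the Elf3 log2 fold changes were -0.11 and -0.11. The part of this list in the Elf3 values was not tested. In progenitors 3 of 10 did not overlap, beside 25.3% of all genes (7.8% higher and 17.5% lower with 4OHT). Ehf, Gata3 and Stat5a were all lower there with 4OHT, and Stat5a, at 8.69 and 9.34 against 14.6 and 11.7 CPM, had the smallest unadjusted p, 0.199 (log2 fold change -0.46, SE 0.33). In hormone-sensing cells 2 of 10 did not overlap, beside 30.9% of all genes (17.8% higher and 13.1% lower with 4OHT).

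Those were Gata3 and Elf5, both higher with 4OHT. Gata3 stood at 373 and 321 CPM against 273 and 273 CPM (log2 fold change 0.31, SE 0.25, unadjusted p = 0.244). Elf5 had 18 and 14 UMIs against 4 and 3, a ratio of 3.35 of the UMI shares (exact 95% interval 1.45 to 8.99, counting error only). Single cells held 7 of the 18 and 6 of the 14 UMIs. Under the strict luminal split its UMIs were 4, 3, 17 and 4, and the groups overlapped.

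Among the treatment effects within a class, the smallest unadjusted p of a factor was that of Grhl2 in basal cells, 0.089 (log2 fold change -1.20, SE 0.60, edgeR adjusted p = 1.00). Without the single cell of 83 UMIs this value was -0.59. Foxa1 in progenitors differed by 1.02 (SE 0.93, unadjusted p = 0.298) and changed sign without 4OHT 2. For an effect that differs between progenitors and basal cells, the interaction called 0 of 9 factors, beside 0% of 11434 genes, and 0 reached an unadjusted p under 0.05, beside 3.75%. The smallest was again that of Grhl2, 0.0694 (log2 value 0.97, SE 0.48), which was 0.48 without the single cell. Neither the companion lists nor the relatives of the factors gave a called gene in any of the treatment comparisons.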

How the data were processed

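The authors deposited a matrix of whole UMI counts (gene by cell) for each library, made by Cell Ranger 3.0.1 against mm10 (GRCm38.91) per the labels and the submitters' processing notes. Strand, introns and cell calling are not given in the sources used here. The labels give the injections as 5 days in one field and as 1 week in another. Libraries were grouped by their treatment label. Counts were summed per library and class and tested with edgeR 4.0.16 (R 4.3.3): TMM, filterByExpr, quasi-likelihood F-test, Benjamini-Hochberg over all tested genes. P-values of the treatment tests measure the spread between libraries, of 1 mouse each. Class and interaction tests had the library as a block, so their p-values measure how class differences vary between libraries. DESeq2 1.42.0, other size factors, no filter, other gates, thinning, left-out libraries and a replicate block were alternatives. No doublet caller was run. Of 3670 cells of no class, 2335 had at least 5 UMIs of both keratin sums. The test was tried on simulated counts with 200 genes changed by a log2 of 2: it recovered 91% in basal, 94.4% in progenitor and 89.9% in hormone-sensing cells, and 51% for the interaction of treatment and class. False calls numbered 5, 10, 2 and 6. The simulation gave every gene the same spread and no shared library effect, so these shares are not the power in these data. Exact intervals and zero-count limits (3 counts) cover counting error only. All 10 factors were named throughout, with the 3 most correlated genes of each (the first printed) and at most 3 called genes per list and direction. The factors and lists were chosen with earlier results of these data known. Positions are from GENCODE M21 on GRCm38.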

Additional observations from a re-analysis of the deposited data

Results flagged for a closer look

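Elf5 in basal cells of 4OHT replicate 2 stood at 2.43 CPM (16 UMIs), apart from the other libraries at 1.22 to 1.36 CPM (8 to 11 UMIs) by more than the limit for an outlying value among 4. A single cell held 5 of the 16 UMIs, which leaves 11 without it, the count of corn oil replicate 1. At a keratin ratio of 10 the value was 1.18 CPM (4 UMIs), inside the range of the other libraries. Chance flags about 1 in 20 such groups, and 30 were examined. The 4OHT to corn oil ratio over 24 and 19 UMIs was 1.48 (exact 95% interval 0.775 to 2.85, counting error only).

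For Gata3, both 4OHT libraries stood below both corn oil libraries in progenitors and above them in hormone-sensing cells, and the treatment effect passed in neither class (unadjusted p = 0.445 and 0.244). Groups of 2 libraries did not overlap for 25.3% of all genes in progenitors (7.8% higher and 17.5% lower with 4OHT). In hormone-sensing cells the share was 30.9% (17.8% higher and 13.1% lower), so the more common direction in each class was that of Gata3. The difference between these effects, tested as an interaction added after seeing the data, was a log2 value of 0.51 (SE 0.24, unadjusted p = 0.0523, edgeR adjusted p = 0.95 over 10493 genes, of which 6 were called and 533 had an unadjusted p under 0.05). In the same fit Elf5 gave 1.73 (SE 0.60, unadjusted p = 0.011, adjusted p = 0.833), from 39 UMIs in hormone-sensing cells, of which single cells of the 4OHT libraries held 7 and 6, and the other 8 factors had an unadjusted p over 0.05.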

How the results depend on the processing

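No factor was called between 4OHT and corn oil, or in the interaction of treatment and class, under any setting run. Counts over all genes moved more. Called genes in basal, progenitor and hormone-sensing cells and in the interaction numbered 93, 39, 59 and 55 with no filter on low counts and 38, 1, 7 and 1 with DESeq2. A keratin ratio of 10 gave 1 gene in progenitors, and a 2000 UMI minimum or thinning gave 0 in hormone-sensing cells. With the replicate number as a block the counts were 167, 9 and 3 genes. Same-numbered libraries deviated together (r = 0.57, 0.32 and 0.22), but with 2 pairs and no label for a shared batch the numbers do not pair the mice. Leaving out 1 library gave 17 (without 4OHT 2) to 127 (without 4OHT 1) genes in basal cells. It gave 31 (without 4OHT 2) to 64 (without 4OHT 1) in progenitors, 4 (without 4OHT 1) to 80 (without 4OHT 2) in hormone-sensing cells and 0 (without 4OHT 1) to 63 (without corn oil 2) for the interaction. The lone library of a group is then assumed to vary like the others.

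The Foxa1 treatment effect in progenitors ran from -0.84 without 4OHT 2 to 2.78 without corn oil 2, and that of Runx1 in hormone-sensing cells from -0.52 to 0.010. Class calls of the factors stayed at 5 to 7, 8 to 9 and 7 to 9 of 10, and 25 of 30 class differences never changed sign. Grhl2 did so in all 3 comparisons. For progenitors over basal cells it was -0.010 thinned, -0.45 at a keratin ratio of 10, -0.11 with no library block, and -0.095 to 0.53 with 1 library left out. For hormone-sensing over basal cells it was -0.020 with no filter, -0.35 thinned, -0.32 at a keratin ratio of 10, -0.11 with no block and -0.082 to 0.55 with 1 library left out. For hormone-sensing over progenitor cells it was -0.073 with no filter, -0.34 thinned and -0.063 with the strict split. For progenitors over basal cells, Myb was -0.33 thinned, -0.17 with the strict split and -0.38 to 1.17 with 1 library left out, and Gata3 was -0.17 to 0.061. Elf3 was called lower in hormone-sensing than in progenitor cells with no filter (-0.46, edgeR adjusted p = 0.0193). The cause of these changes was not tested.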
